A study of Rattus norvegicus with 6 samples.

Results

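The 10 genes described here encode actin itself or proteins that build, cut and signal to actin filaments: Actb, Actg1, Cfl1, Cfl2, Pfn1, Gsn, Arpc2, Arpc3, Wasf1 and Fyn. They were taken by gene symbol from a table of 32662 rat genes, each symbol matched 1 row, and all 10 were among the 10766 genes tested. The cells were primary oligodendrocyte precursor cells, which divide and mature into myelin-forming oligodendrocytes, prepared from the cortex of Sprague-Dawley rats 1 to 2 days after birth. Mixed glia were first grown in medium containing 20% fetal bovine serum. The cells that did not adhere were collected and cultured a further 4 to 5 days in 2% B27 supplement with PDGF and FGF, at 10 ng/ml each, and all libraries share this regime. In 3 libraries (the fibril group) the cells had met preformed fibrils of human alpha-synuclein for 72 hours, and 3 libraries (the control group) came from cells without fibrils. Separate cultures or animals are not named for the libraries, so each p-value reflects the spread between samples that may be technical repeats.

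Actin exists as single molecules and as filaments, and cells reshape themselves by shifting between these states. Nucleators such as the Arp2/3 complex start new branched filaments, profilin feeds actin to growing ends, and cofilin and gelsolin sever filaments. In the oligodendrocyte lineage, filament assembly drives the outgrowth of processes, and filament disassembly accompanies the wrapping of myelin around axons. Fyn, a kinase of the Src family, relays contact signals to the cytoskeleton in these cells and is needed for normal myelination.

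Levels are FPKM, that is, mapped fragments scaled by gene length and by the library's total, which allows levels of different genes to be compared per length. The number of fragments per library is unknown. From the step size of values below 1 FPKM, 1 fragment was worth 4.03 and 6.92 times as much in replicate 1 of the control and fibril groups as in control replicate 2. The remaining libraries lay between 0.818 and 1.95, so values of replicate 1 are the least precise. Mitochondrially encoded genes held 80.3% and 75.6% of all FPKM in replicate 1 of the control and fibril groups, and no more than 40.1% elsewhere. Of 7 precursor markers found, all were above 0 in every library, and their summed level was 1464 to 2392 FPKM in the controls and 1180 to 1382 FPKM with fibrils. Myelin markers also differed (336 to 841 FPKM in the controls and 2224 to 4090 FPKM with fibrils, 11 genes). In bulk RNA fewer cells of a type and less RNA per cell cannot be told apart, and the part of these markers in the members' values was not tested.

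No member passed the test in either direction, although all 10 had a positive log2 difference (fibril minus control, on log2(FPKM + 1)). By limma with Benjamini-Hochberg adjustment over all tested genes, 0 of 10 reached an adjusted p of 0.05, where 0% of all tested genes were called in either direction. With the replicate number as a block, 0 of 10 passed again and 0.111% of all tested genes were called higher. The labels state no pairing by this number. At an unadjusted p under 0.05 there were 0 of 10 members without the block and 2 of 10 with it (Arpc3 and Fyn), against 4.02% and 9.84% of all tested genes.

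The positive sign of all 10 has to be read against the whole table and its scaling. Among all tested genes 47.0% had a positive difference, and among the 1375 tested genes with a mean of 50 FPKM or more (a limit chosen after the values were seen), to which 9 members belong, the share was 77.0%. The members' median log2 difference was 0.54, that of all tested genes -0.04 and that of the abundant genes 0.36. The members' median was 0.54, 0.09 and 0.56 within replicates 1, 2 and 3. When FPKM were rescaled without mitochondrial genes, the median of all tested genes moved to -0.30, and 6 members stayed positive (median 0.23, or 0.53 above that of all tested genes). The median of the abundant genes is not given for this scaling. Together the members held 1.11%, 1.72% and 2.26% of non-mitochondrial FPKM in control replicates 1, 2 and 3. With fibrils they held 1.42%, 1.73% and 1.79%, so the groups overlapped. Under quantile normalization 4 members were positive (Arpc3, Fyn, Gsn and Pfn1) and the members' median was -0.02.

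**Figure D1:**
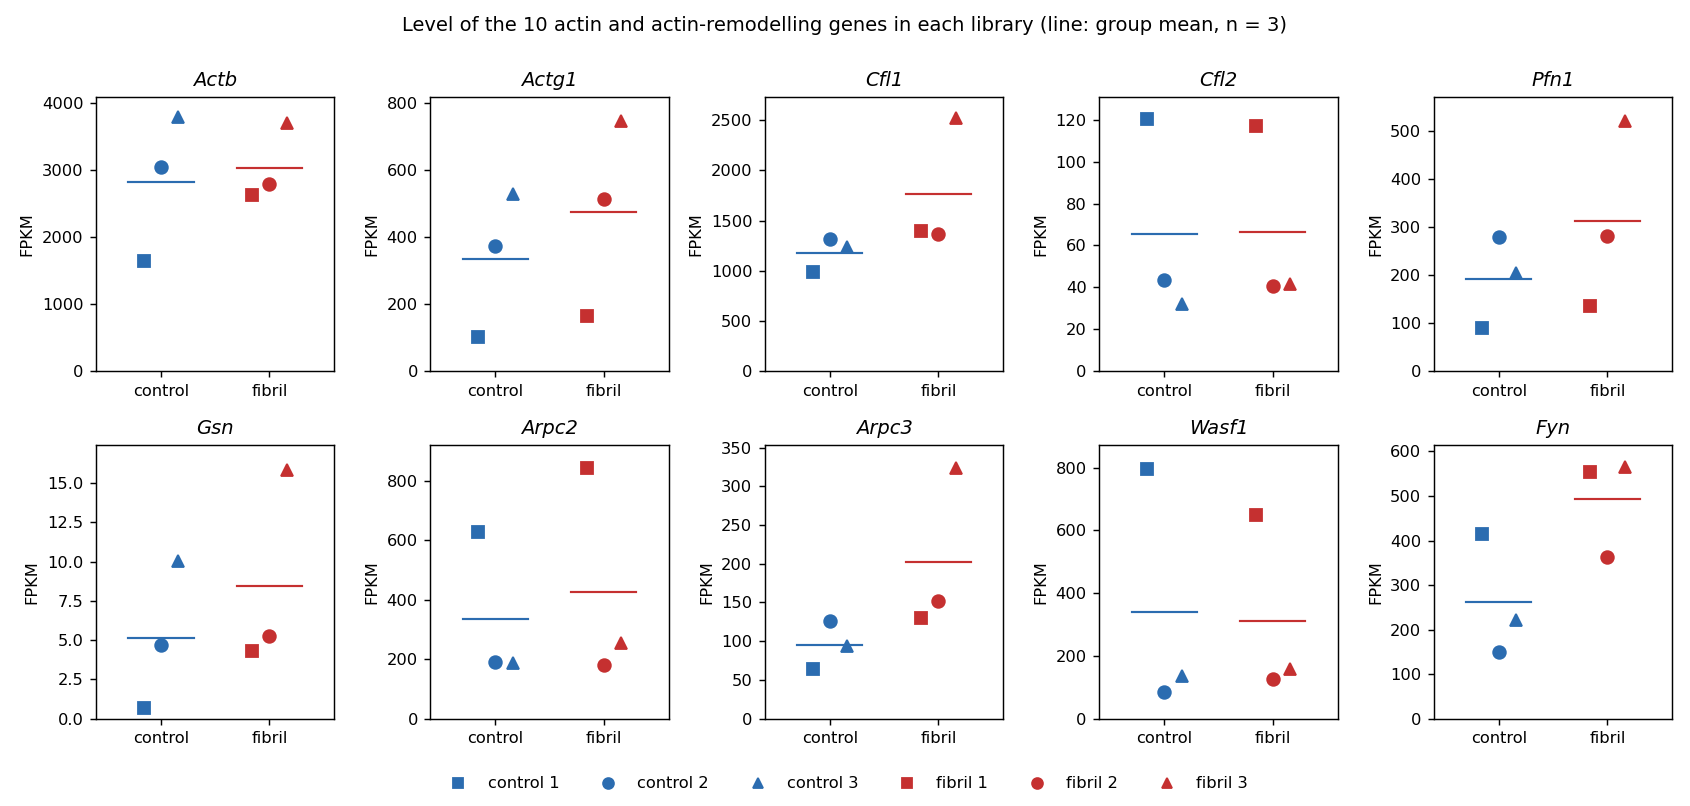
FPKM (vertical axis, from 0) of the 10 genes in each of the 6 libraries, with control in blue, fibril in red, a marker shape per replicate number and a line at each group mean. Every fibril library lies above every control for Cfl1 and Arpc3, and both replicate 1 libraries lie far above the others for Cfl2, Arpc2 and Wasf1.

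By control mean the order was Actb (2822 FPKM), Cfl1 (1180), Wasf1 (339), Arpc2 (335), Actg1 (334), Fyn (262), Pfn1 (191), Arpc3 (94.8), Cfl2 (65.3) and Gsn (5.14 FPKM). Control libraries of neighbouring genes in this order overlapped from Wasf1 to Cfl2, while Actb, Cfl1 and Gsn kept the same rank in all 6 libraries.

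Actb and Actg1 encode beta-actin and gamma-actin, the cytoplasmic actins of nearly all cells. Actb (chromosome 12, 13715842 to 13718841 in the coordinates of the deposited table, whose build is not given in the sources used here) was the most abundant member in each library. It had 1636, 3046 and 3782 FPKM in control replicates 1, 2 and 3, and 2620, 2793 and 3693 FPKM in fibril replicates 1, 2 and 3. The groups overlapped, and the fibril library was the higher of the numbered pair in replicate 1 alone. The log2 difference was 0.17 (SE 0.76, 95% interval -1.55 to 1.89, limma adjusted p = 0.991), and it was -0.18 without control replicate 1.

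Actg1 (chromosome 10, 109519133 to 109520846) had 101, 372 and 528 FPKM in the controls and 164, 515 and 747 FPKM with fibrils. The groups overlapped, yet the fibril library was higher in 3 of 3 replicate numbers, by log2 differences of 0.69, 0.47 and 0.50. The pooled difference of 0.55 (SE 0.79, limma adjusted p = 0.966) was smaller than its standard error. Replicate 1 of both groups lay far below the others, and the difference turned negative (-0.15) without control replicate 1. Under quantile normalization it was -0.03. The muscle actins Acta2, Actc1 and Actg2 were listed at 0 in all libraries, and Acta1 was at 0.415 FPKM or less. Since Pak2, a kinase gene used by most cells, was also listed at 0 throughout, a listed 0 can be a failed estimate.

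The promoter of Actg1 is printed because it alone among the 9 members searched held a CArG box, the motif bound by serum response factor, a regulator of actin genes. RefSeq gives promoter windows of 300 bases (250 before the gene's start and 50 after it) for 9 members in build GRCr8. Actb has no entry, so its promoter was not searched. The Actg1 window lies at chr10:106120902-106121201 on the minus strand, and the capitals mark the CArG box, whose first base is at -90 from the start.
Actg1: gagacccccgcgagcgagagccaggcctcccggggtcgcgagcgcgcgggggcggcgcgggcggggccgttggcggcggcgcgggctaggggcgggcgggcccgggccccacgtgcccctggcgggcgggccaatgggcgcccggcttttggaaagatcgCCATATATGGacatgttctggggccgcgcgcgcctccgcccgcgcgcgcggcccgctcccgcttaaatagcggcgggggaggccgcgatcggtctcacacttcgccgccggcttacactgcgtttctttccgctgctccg
On either strand, 1.64% of all 33469 promoter windows held such a box. The match is a description and not a shown binding site. Srf, which encodes serum response factor, had 9.69, 7.62 and 9.07 FPKM in the controls and 8.33, 8.61 and 8.51 FPKM with fibrils (log2 difference -0.04, SE 0.35, limma adjusted p = 0.996).

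Cfl1 and Cfl2 encode cofilin 1, the non-muscle form, and cofilin 2, which is prominent in muscle. Cfl1 (chromosome 1, 220869804 to 220873337) was the next most abundant member after Actb in all libraries. It had 989, 1313 and 1237 FPKM in the controls and 1394, 1361 and 2522 FPKM with fibrils. All 3 fibril libraries lay above all 3 controls, as for 4.24% of all tested genes, but fibril replicates 1 and 2 exceeded the highest control by little. Fibril minus control was 0.52 on the log2 scale (SE 0.63, limma adjusted p = 0.964). It was 0.49, 0.05 and 1.03 within replicates 1, 2 and 3, so the gap was widest in replicate 3. The difference was 0.23 without fibril replicate 3, 0.21 when scaled without mitochondrial genes, and -0.14 under quantile normalization.

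Cfl2 (chromosome 6, 75759139 to 75763185) had 120, 43.6 and 32.1 FPKM in the controls and 117, 40.8 and 41.5 FPKM with fibrils. The same-numbered libraries of the groups nearly coincided in replicates 1 and 2, and replicate 1 was about as high above the others in each group. Fibril minus control was 0.08 on the log2 scale (SE 0.62, 95% interval -1.33 to 1.48, limma adjusted p = 0.996). An interval this wide does not show equal levels.

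Pfn1 encodes profilin 1, which binds actin monomers and hands them to growing filament ends. It lies on chromosome 10 (57273004 to 57275708) and had 89.7, 280 and 204 FPKM in controls against 136, 282 and 522 FPKM with fibrils. The highest value was fibril replicate 3, the lowest was control replicate 1, and the groups overlapped. The log2 difference was 0.65 (SE 0.65, limma adjusted p = 0.960), and within replicates 1, 2 and 3 it was 0.59, 0.01 and 1.35. It stayed positive in the 13 alternative settings that can change it, between 0.18 (without control replicate 1 or fibril replicate 3) and 1.15.

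Gsn encodes gelsolin, a calcium-dependent protein that severs and caps filaments and is known as a product of mature oligodendrocytes. It was the least abundant member in every library (chromosome 3, 14467329 to 14508911). It had 0.687, 4.70 and 10.0 FPKM in the controls and 4.34, 5.24 and 15.9 FPKM with fibrils. The fibril library was higher in 3 of 3 replicate numbers, and the groups overlapped. The log2 difference of 0.80 (SE 0.73, limma adjusted p = 0.960) came to 0.06 when control replicate 1 was left out.

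Arpc2 and Arpc3 encode subunits of the Arp2/3 complex, which nucleates branched filaments. Arpc2 (chromosome 9, 81518175 to 81548871) had 630, 190 and 186 FPKM in the controls and 845, 179 and 256 FPKM with fibrils. Replicate 1 was the highest library of each group, and the groups overlapped. Fibril minus control was 0.26 on the log2 scale (SE 0.74, limma adjusted p = 0.979).

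Arpc3 (chromosome 12, 39653952 to 39667849) and Fyn showed nearly equal log2 differences, above those of the other members. Arpc3 encodes a small subunit of the complex. The gene had 64.2, 126 and 93.8 FPKM in the controls and 130, 152 and 324 FPKM with fibrils, with all fibril libraries above all controls. The fibril mean was 202 ± 106 FPKM and the control mean 94.8 ± 31.2 FPKM (SD, n = 3 each). The log2 difference was 1.01 (SE 0.51, 95% interval -0.14 to 2.17, limma adjusted p = 0.960), and 1.00, 0.27 and 1.78 within replicates 1, 2 and 3. The unadjusted limma p was 0.0782, and 0.0262 with the replicate block, where the limma adjusted p was 0.481. The difference stayed positive in the 13 alternatives that can change it, between 0.62 (without fibril replicate 3) and 1.39.

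The members of this complex did not keep a fixed ratio across libraries. The ratio of Arpc2 to Arpc3 FPKM was 9.80, 1.50 and 1.99 in controls and 6.53, 1.17 and 0.791 with fibrils. The ratio was lower with fibrils in each numbered pair, and replicate 1 stood apart in both groups.

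Wasf1 encodes WAVE1, which couples the GTPase Rac to the Arp2/3 complex. It lies on chromosome 20 (48455704 to 48503898) and had 796, 85.7 and 135 FPKM in the controls and 651, 126 and 157 FPKM with fibrils. In both groups replicate 1 lay far above the rest. The ratio of group means was 0.919, below 1, while the log2 difference was positive (0.16, SE 0.93, 95% interval -1.94 to 2.26, limma adjusted p = 0.995), so no direction can be given.

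Fyn lies on chromosome 20 (44436402 to 44630317). It had 414, 149 and 222 FPKM in the controls and 555, 362 and 565 FPKM with fibrils. The groups overlapped through control replicate 1, which lay above fibril replicate 2. The fibril mean was 494 ± 114 FPKM and the control mean 262 ± 137 FPKM (SD, n = 3 each). Its log2 difference was 1.01 (SE 0.55, 95% interval -0.23 to 2.26, limma adjusted p = 0.960), and 0.42, 1.28 and 1.34 within replicates 1, 2 and 3. The unadjusted limma p was 0.0990, and 0.0243 with the block, where the limma adjusted p was 0.481. Scaled without mitochondrial genes or under quantile normalization, all 3 fibril libraries lay above all 3 controls for Fyn and for no other member (2.50% and 4.74% of all tested genes).

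**Figure D2:**
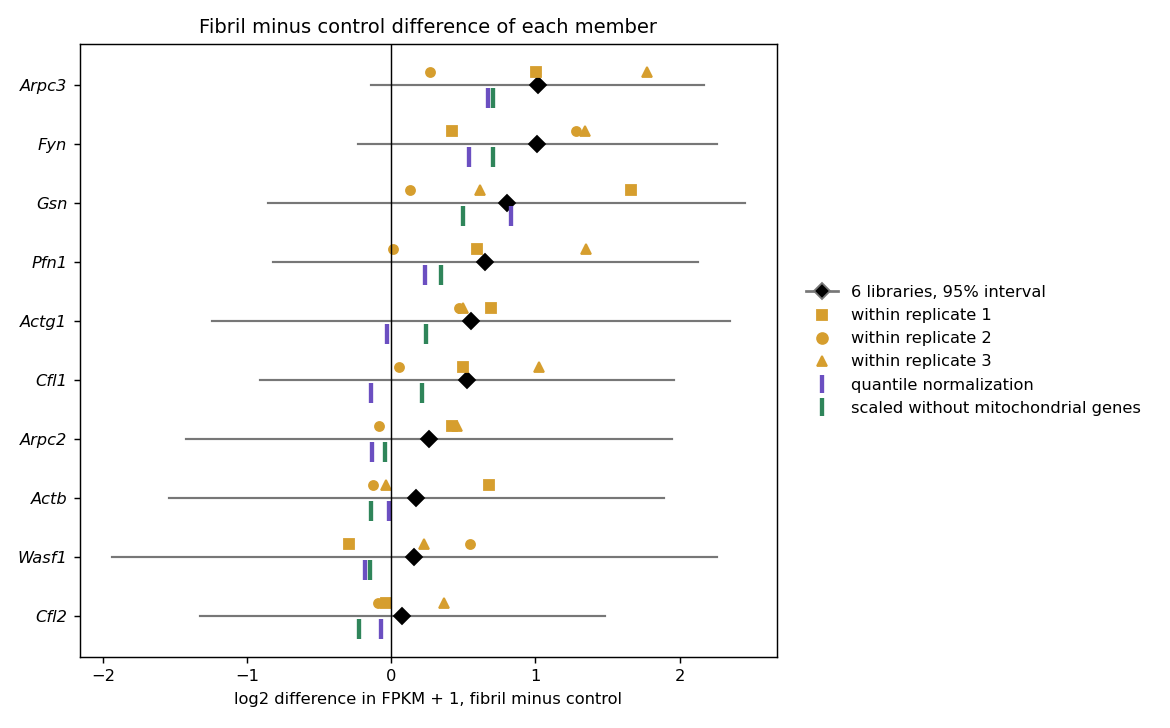
Log2 difference in FPKM + 1 (fibril minus control, horizontal axis) of each gene: black diamonds with 95% limma intervals for the 6 libraries, gold markers for the difference within each replicate number, and short coloured bars for 2 other scalings. Every interval spans 0, and quantile normalization puts 6 of the 10 genes below 0.

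Counted over the members, the groups did not overlap for 2 of 10 (Cfl1 and Arpc3, both higher), against 4.24% of all tested genes and 6.76% of the abundant ones. The count was 2 or 3 when any 1 library was left out, against 5.81% to 11.4% of all tested genes, and 4 in replicates 2 and 3 only, against 18.0%. It was 1 with FPKM rescaled without mitochondrial genes and 1 under quantile normalization (Fyn in each case). In 6 of 10 (Actg1, Cfl1, Pfn1, Gsn, Arpc3 and Fyn) the fibril library was higher in 3 of 3 replicate numbers, as for 16.9% of all tested genes and 34.4% of the abundant ones. The labels state no pairing by number. Against control replicate 3, fibril replicate 2 was lower for Actg1 (515 against 528 FPKM) and Gsn (5.24 against 10.0 FPKM). These genes leave the count if numbers 2 and 3 are crossed. No member was lower in 3 of 3, against 19.3% of all tested genes. The number with a positive difference was 7 to 10 when 1 library was left out.

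The widest differences among the members lay between replicate 1 and replicates 2 and 3, not between the treatment groups. Replicate 1 was higher in each group for 4 members (Wasf1, Arpc2, Cfl2 and Fyn) and lower for the other 6. Wasf1 was 7.23 times as high in control replicate 1 as the mean of control replicates 2 and 3, and 4.60 times in the fibril group. Arpc2 was 3.34 and 3.88 times as high, and Cfl2 3.18 and 2.84 times. In the other direction, Gsn was lowest in replicate 1, and its mean in replicates 2 and 3 was 10.7 times as high in controls and 2.43 times with fibrils. Replicates 2 and 3 together averaged 4.44 and 3.84 times replicate 1 for Actg1 in the control and fibril groups. On the log2 scale the median over all tested genes was -0.25 in controls and -0.10 with fibrils, and 41.3% and 46.3% of genes were higher in replicate 1. Wasf1 ranked above 99.1% of tested genes for this distance in controls and above 98.8% with fibrils, Actg1 above 3.19% and 4.25%, and Gsn above 2.50% and 20.2%. Rescaling without mitochondrial genes left the same 4 members positive in each group. The labels name no batch, so what set replicate 1 apart was not tested.

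**Figure D3:**
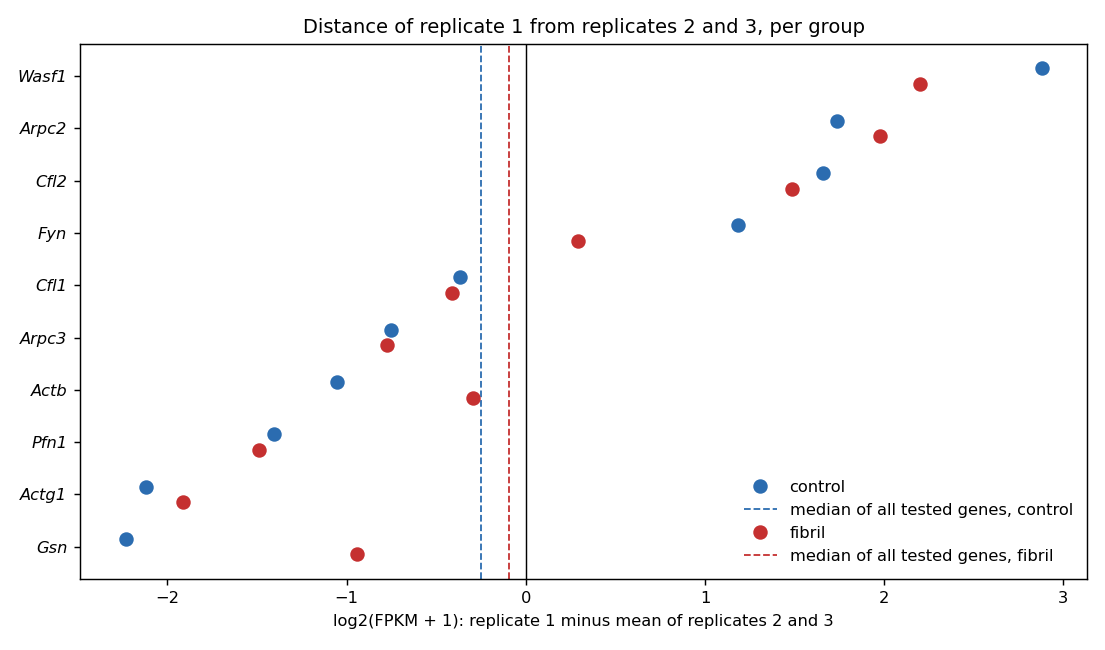
Distance of replicate 1 from the mean of replicates 2 and 3 on log2(FPKM + 1) (horizontal axis) for each gene, in controls (blue) and with fibrils (red), with dashed lines at the medians of all tested genes. Wasf1, Arpc2, Cfl2 and Fyn lie to the right of 0 in both groups and the other 6 genes to the left.

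Across the 6 libraries the members fell into groups that varied together, given here as a description without a test. The libraries differed in the worth of 1 fragment and in the mitochondrial share, and the part of these in the correlations was not tested. Arpc2, Cfl2 and Wasf1 correlated with each other at 0.94 to 0.96 (Pearson r of log2(FPKM + 1)). Actb correlated with Gsn at 0.96 and with Actg1 at 0.90, and Cfl1 with Arpc3 at 0.97. Actg1 and Cfl2 varied oppositely (-0.93).

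The share of each paralog within its family does not depend on how a library is scaled. Actb made up 94.2%, 89.1% and 87.8% of the summed FPKM of Actb and Actg1 in controls, and 94.1%, 84.4% and 83.2% with fibrils. The fibril share was the lower in each numbered pair, the groups overlapped, and the means differed by -3.10 percentage points (exact permutation test, two-sided, p = 0.5; 3 against 3 cannot go below 0.1). Cfl1 made up 89.2%, 96.8% and 97.5% of the summed cofilin FPKM in the controls and 92.3%, 97.1% and 98.4% with fibrils (1.43 percentage points, exact permutation p = 0.6). The fibril share was the higher in each numbered pair, though the difference of means became -1.22 points without control replicate 1. Fibril replicate 2 (97.1%) lay below control replicate 3 (97.5%), and the labels state no pairing. Fragments from near-identical stretches of Actb and Actg1, and from their processed copies, could be assigned to either gene, so these shares carry that uncertainty. No row carries the symbol Pfn2, so no share was computed for profilin.

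WAVE genes showed the least stable composition. Wasf1 made up 83.8%, 31.6% and 51.9% of the summed FPKM of Wasf1, Wasf2 and Wasf3 in controls, and 77.9%, 42.3% and 93.1% with fibrils (15.3 percentage points, exact permutation p = 0.6). In replicate 1 the high share went with a high Wasf1 value. In fibril replicate 3 it went with low values of the paralogs instead. There Wasf3 had 11.1 FPKM, against 118 to 179 FPKM in the other 5 libraries, and Wasf2 had 0.525 FPKM, against 5.93 to 11.1 FPKM.

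**Figure D4:**
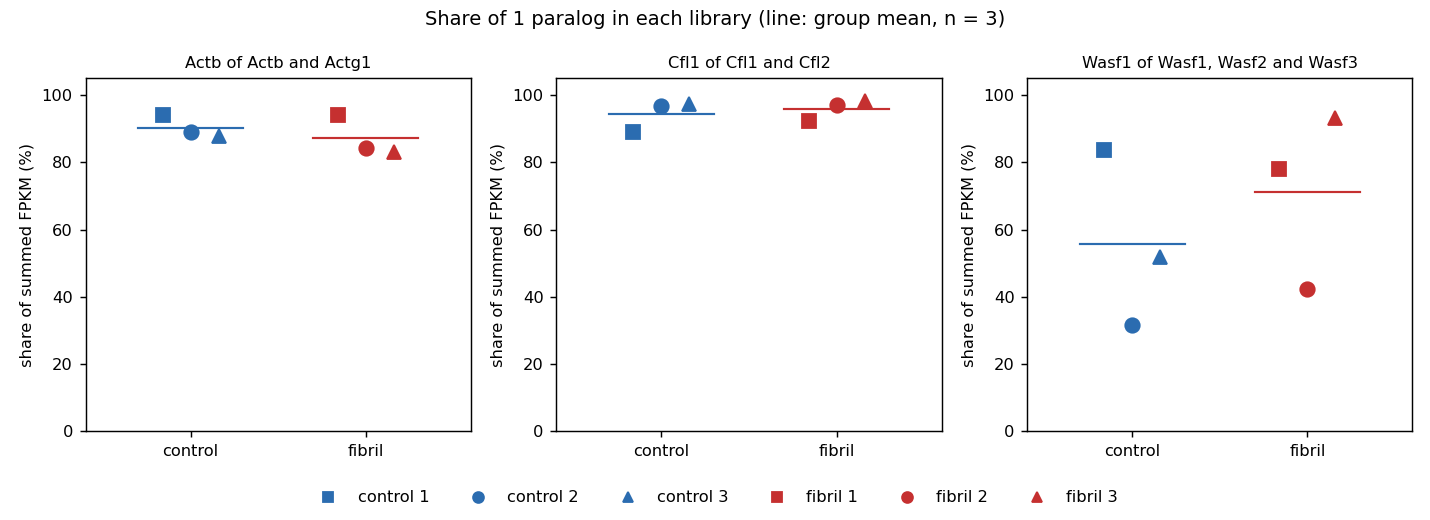
Share of 1 paralog in the summed FPKM of its family (vertical axis, percent from 0) in each library, with control in blue, fibril in red, a marker shape per replicate number and a line at each group mean. Shares of Actb and Cfl1 stay between 83.2% and 98.4%, while that of Wasf1 runs from 31.6% to 93.1%.

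The genes whose levels most resembled those of 3 members were found among 5282 tested genes with a mean of at least 10 FPKM, by Pearson r over the 6 libraries. For Fyn they were Ugt8 (0.993), which makes the myelin lipid galactosylceramide, Tubb4a (0.992), a tubulin of oligodendrocytes and neurons, and Cdkn1c (0.987), a cell cycle inhibitor. Tubb4a had 606, 46.0 and 92.9 FPKM in the controls and 1762, 428 and 1206 FPKM with fibrils. Ugt8 had 55.2, 14.2 and 24.3 FPKM against 81.2, 44.5 and 103 FPKM. In these, as in Fyn, replicate 2 was the lowest library of each group. For Actb they were Mthfd1 (0.991), Csnk1d (0.990) and Igsf8 (0.989), and for Gsn Kdm4b (0.996), Ptdss1 (0.995) and LOC100294508 (0.993). These values of r are a description with no test, over few libraries. Of the myelin markers 9 of 9 tested had a positive difference (median 2.65), beside the positive difference of Fyn. Ugt8 is itself in that marker list.

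Beyond the members, 11 lists held 117 other genes of the actin pathway, of which 88 were tested. In them 0 genes passed in either direction by limma without the block and 0 with it, while 6 had an unadjusted p under 0.05 without the block, where 4.02% of all tested genes did. Of the 88, 36 had a positive difference, against 47.0% of all tested genes, and the median was -0.08, beside -0.04 over all tested genes. For 6 of them all fibril libraries lay above all controls and for 6 below, against 4.24% and 5.30% of all tested genes.

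Of 8 other genes of the Arp2/3 complex 5 were positive, against 47.0% of all tested genes and 77.0% of the abundant ones. Their median log2 difference was 0.40 (0.24 under quantile normalization and 0.10 when scaled without mitochondrial genes). Arpc1b, encoding a subunit that is abundant in blood cells, had 5.48, 8.26 and 4.10 FPKM in the controls and 21.6, 26.3 and 51.3 FPKM with fibrils (chromosome 12, 11252295 to 11265865). All fibril libraries lay above all controls, and the log2 difference was 2.24 (SE 0.45, limma adjusted p = 0.383, and 0.143 with the block). In the blocked fits that left out replicate 1, 2 or 3, with 1 residual degree of freedom, the limma adjusted p was 0.00395, 0.000327 and 0.0431. Of all tested genes, those fits called 84, 115 and 44 higher and 48, 153 and 7 lower. They share libraries and are not separate tests of Arpc1b. Its neighbour and paralog Arpc1a had 235, 66.4 and 45.3 FPKM against 438, 108 and 394 FPKM, with overlap (log2 difference 1.56, SE 0.76). The deposited row of Arpc1a spans 390 bases, and fragments shared with Arpc1b could be assigned to either. Actr2, one of the actin-related proteins at the core of the complex, had 103, 82.2 and 88.7 FPKM against 92.6, 76.2 and 21.3 FPKM (log2 difference -0.76, SE 0.57).

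In the list of WAVE and WASP regulators 3 of 11 tested genes were positive (median -0.30). Abi2, encoding a WAVE complex subunit, had 137, 91.5 and 103 FPKM in the controls and 71.9, 69.2 and 6.10 FPKM with fibrils, all fibril libraries below all controls (log2 difference -1.73, SE 0.84, limma adjusted p = 0.960). Without fibril replicate 3 the difference was -0.62. Wipf2, encoding a partner of WASP proteins, had 4.88, 7.60 and 13.2 FPKM against 4.21, 8.12 and 1.34 FPKM. Wasf3, given above, was the third of the list by p.

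Of 15 genes of the cofilin system 8 were positive (median 0.17, and -0.13 when scaled without mitochondrial genes). Coro1b, encoding a coronin that acts on branched filaments, had 43.7, 53.1 and 47.1 FPKM in the controls and 79.7, 92.9 and 239 FPKM with fibrils, without overlap (log2 difference 1.32, SE 0.50, limma adjusted p = 0.960, and 0.83 as the log2 difference without fibril replicate 3). Of the slingshot phosphatases, which activate cofilin, Ssh1 and Ssh2 had negative differences and Ssh3 a positive one. Ssh3 had 0.429, 0.423 and 0.216 FPKM against 1.85, 1.59 and 1.04 FPKM. It is a low gene that passed the filter only through the fibril libraries, so its sign is no support for a contrast. Ssh2 had 2.84, 5.64 and 8.25 FPKM against 1.68, 4.34 and 0.297 FPKM, and Ssh1 had 1.48, 2.66 and 2.86 FPKM against 0.282, 2.57 and 0.316 FPKM. Among monomer-binding genes, both tested thymosins were positive with overlap, though their median of 0.46 became -0.16 under quantile normalization: Tmsb4x had 2133, 2268 and 729 FPKM against 2653, 2021 and 1831 FPKM, and Tmsb10 had 816, 2146 and 958 FPKM against 1013, 1677 and 2370 FPKM.

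In the gelsolin and capping list 3 of 9 were positive (median -0.11). Eps8, which encodes a capping and bundling protein, had 18.3, 26.4 and 36.6 FPKM in the controls and 10.5, 16.9 and 10.9 FPKM with fibrils, all below the controls (log2 difference -1.01, SE 0.41, limma adjusted p = 0.960). Add3, encoding an adducin of the membrane skeleton, had 12.8, 12.6 and 11.6 FPKM against 8.86, 7.33 and 4.28 FPKM, again without overlap, and Add2 had 1.18, 5.52 and 7.09 FPKM against 0, 3.76 and 1.74 FPKM. Formins, which elongate unbranched filaments, had 1 of 7 positive (median -0.56). Among them Fmnl1 had 2.11, 2.77 and 2.53 FPKM against 0.805, 1.71 and 1.63 FPKM, Daam1 15.8, 10.8 and 11.8 FPKM against 10.0, 9.12 and 5.90 FPKM, and Fmn2 2.68, 9.16 and 7.19 FPKM against 1.63, 4.89 and 0.303 FPKM.

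Most relatives of Fyn had the opposite sign. Of 5 tested Src family and Csk-related genes 1 was positive (median -0.63). Yes1, encoding a close relative of Fyn, had 15.3, 17.0 and 15.4 FPKM in the controls and 7.87, 13.4 and 1.84 FPKM with fibrils, without overlap (log2 difference -1.24, SE 0.58, limma adjusted p = 0.960). Without fibril replicate 3 the difference of Yes1 was -0.58. Lyn had 4.16, 4.00 and 6.17 FPKM against 2.29, 4.32 and 1.84 FPKM, and Pag1, an adaptor that binds Csk, had 1.47, 2.74 and 7.11 FPKM against 0, 7.13 and 0.731 FPKM. Whether Fyn and Yes1 differed in response was not tested.

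Among crosslinkers and tropomyosins 7 of 15 were positive (median -0.03). Among listed genes known from blood cells, Rac2 and Lcp1 had positive differences and Coro1a did not. They were grouped after the values were seen. Coro1a had 0.370, 2.97 and 2.35 FPKM in the controls and 0, 2.17 and 4.36 FPKM with fibrils (log2 difference -0.03). Rac2, a GTPase of leukocytes, had 0, 2.99 and 0.0906 FPKM in the controls and 3.04, 20.5 and 5.65 FPKM with fibrils (log2 difference 2.35, SE 0.74, limma adjusted p = 0.960, and 0.0686 with the block). Lcp1, encoding the leukocyte bundling protein L-plastin, had 0, 1.19 and 0.0336 FPKM against 1.73, 10.9 and 1.94 FPKM. For both genes every fibril library exceeded every control. Microglia and macrophage markers, 11 genes found, summed to 8.76, 46.3 and 2.00 FPKM in the controls and 13.5, 62.0 and 36.4 FPKM with fibrils. Of the 7 tested, 5 had a positive difference. In replicate 2, C1qa (10.3 against 2.93 FPKM), C1qb, C1qc, Csf1r, Cx3cr1 and P2ry12 were lower with fibrils. Aif1, Cd68, Tyrobp (4.48 against 18.7 FPKM), Cd14 and Ptprc were higher there. Replicate 2 was the highest of each group for the marker sums, for Rac2 and for Lcp1. In replicate 1 of both groups Csf1r, C1qa, C1qb, C1qc, Cx3cr1 and Ptprc were listed at 0. The part of these cells in the values of Arpc1b, Rac2 and Lcp1 was not tested.

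Other crosslinker genes were less apart. Rdx, encoding the membrane linker radixin, had 146, 73.4 and 68.9 FPKM against 89.7, 73.9 and 19.9 FPKM, and Fscn1, encoding the bundling protein fascin, had 20.0, 85.2 and 93.2 FPKM against 68.5, 111 and 111 FPKM. In the list of serum response factor and its cofactors 0 of 2 tested genes were positive, and Mkl1 had 2.48, 5.19 and 7.05 FPKM against 1.78, 5.04 and 2.84 FPKM.

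**Figure D5:**
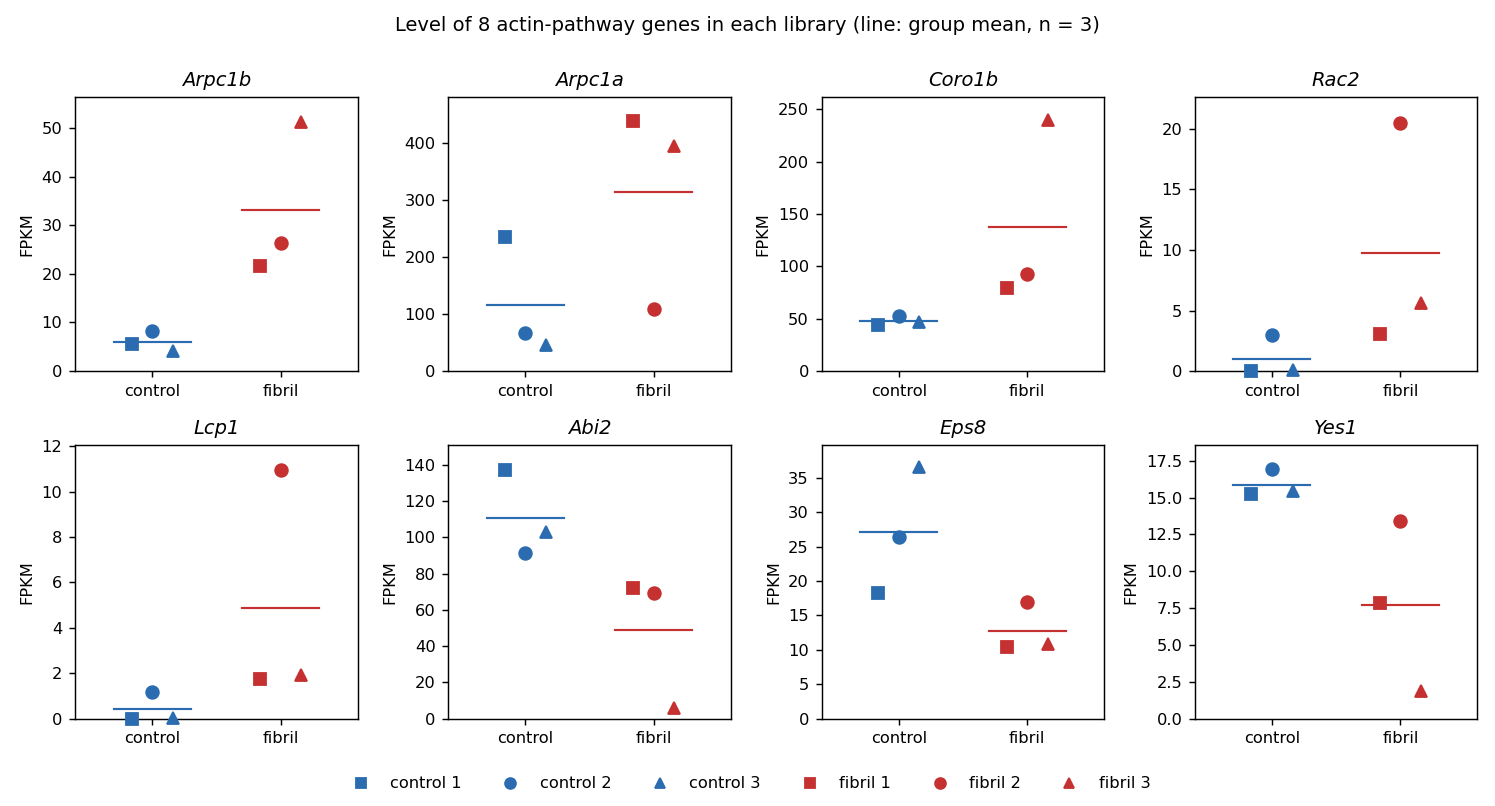
FPKM (vertical axis, from 0) of 8 other actin-pathway genes in each of the 6 libraries, with control in blue, fibril in red, a marker shape per replicate number and a line at each group mean. For Arpc1b, Coro1b, Rac2 and Lcp1 all fibril libraries lie above all controls, and for Abi2, Eps8 and Yes1 all lie below. The 8 genes are among those with the smallest p-values of their lists and are not typical of the pathway. Of the 88 tested listed genes, 6 lie above and 6 below, against 4.24% and 5.30% of all tested genes.

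Markers of neurons and astrocytes were mostly on the lower side, with 0 of 8 tested neuron markers (median log2 difference -0.66) and 2 of 7 astrocyte markers (median -0.91) positive. Their part in the members' values was not tested. Astrocyte markers (8 genes) summed to 175 to 196 FPKM in the controls and 101 to 260 FPKM with fibrils, and neuron markers (8 genes) to 275 to 605 and 113 to 399 FPKM. Of 9 fibroblast and mural cell markers, Col1a2, Acta2 and Lum were listed at 0 in all libraries, and the sum was 1.49 to 8.75 FPKM in the controls and 1.28 to 9.41 FPKM with fibrils.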

How the data were processed

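The deposited table holds FPKM per gene and library, computed by the authors, per the file headers. Per the submitters' processing notes, FastQC and Trimmomatic were among the tools. Aligner, quantifier and build: not given in the sources used here. Coordinates are those of the table, and 6 further columns were empty. The members and gene lists were chosen with earlier results of these data known. Genes named were all members, the 3 smallest p-values of each list, and the 3 genes most correlated with Actb, Gsn and Fyn; other names were chosen after their values were seen. The results of 1 list are not reported here. Where 2 rows share a symbol (Tmsb10), the row with the higher mean was used.

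From the FPKM, log2(FPKM + 1) was computed for genes reaching 1 FPKM in 3 or more libraries; this scale understates changes of low genes. The test was limma 3.58.1 (R 4.3.3), two-sided with a mean-variance trend, and p-values were adjusted by Benjamini-Hochberg (threshold 0.05), with 4 residual degrees of freedom, or 2 with the replicate block. Simulated data of 10766 genes for this comparison had 50 genes changed at each size. Calls without a block were 0, 1, 22 and 38 at log2 changes of 1, 2, 3 and 4, and with it 0, 10, 24 and 31. Neither fit made a false call in this single draw. Its noise was independent for each gene and library, and replicate effects were built in. It therefore cannot show that false calls are absent in the measured libraries or that the block is the better fit. Same-numbered libraries deviated together (correlations 0.747, 0.364 and 0.216), so the replicate number was also fitted as a block. Counts with the block are given beside the main ones. Single p-values with it are given for Arpc3, Fyn, Arpc1b and Rac2, although with all libraries it changed no call of these genes. The labels state no pairing, and crossed numbers gave higher values among replicates 2 and 3 (0.500 for control 3 and fibril 2, 0.433 for control 2 and fibril 3), so replicate 1 alone matched its own number best. Shares of paralogs were compared by exact permutation in scipy 1.17.1. Alternatives changed the pseudocount, filter, scaling, block and libraries.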

Additional observations from a re-analysis of the deposited data

How the results depend on the processing

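No member passed the threshold under any of 20 alternative settings, and the smallest member adjusted p by limma was 0.187 (Arpc3, replicate block without replicate 2). The block, the filters and the trend cannot change a log2 difference over the same libraries, and 13 settings can. In those 13 the differences of Arpc3, Fyn, Gsn and Pfn1 stayed positive. Under quantile normalization, with or without the replicate block, the log2 differences were Actb -0.014, Actg1 -0.031, Cfl1 -0.14, Cfl2 -0.074, Arpc2 -0.13 and Wasf1 -0.18, the members' median was -0.022, 4 were positive, and the groups did not overlap for 1. Scaled without mitochondrial genes, with or without the block, they were Actb -0.14, Cfl2 -0.23, Arpc2 -0.045 and Wasf1 -0.15, the median was 0.23, 6 were positive, and the groups did not overlap for 1. In replicates 2 and 3 only, Actb was -0.080 and the groups did not overlap for 4. The cause of these changes was not tested.

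With the replicate block limma called 12 genes higher and 0 lower of all tested, 1 higher with the block and scaling without mitochondrial genes, 13 higher and 2 lower with the block and quantile normalization, and 1 higher without a trend. The block changed no call of a member or of a listed gene with all libraries. Leaving out a replicate number in the blocked fit left 1 residual degree of freedom. It called 44 (without replicate 3), 84 (without replicate 1) or 115 (without replicate 2) genes higher and 7, 48 or 153 lower, and 2 to 4 listed genes, with Arpc1b and Rac2 in each case. In these fits Actb was -0.080 without replicate 1, Wasf1 -0.034 without replicate 2 and Cfl2 -0.066 without replicate 3, and the members' median was 0.29 at its lowest.

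Leaving out 1 library at a time, without the block, gave log2 differences of -0.18 to 0.43 for Actb, -0.15 to 1.19 for Actg1, -0.42 to 0.63 for Cfl2, -0.39 to 0.84 for Arpc2 and -0.57 to 1.12 for Wasf1, with 7 to 10 members positive and their median between 0.30 and 0.79. It called 3 genes higher without fibril replicate 3, 0 in the other 5 cases, 0 lower and 0 listed genes. The Cfl1 share difference ranged from -1.22 to 3.26 points and was negative without control replicate 1. Paralog shares gave no paired call, since 3 pairs cannot reach the threshold. FPKM hold no fragment numbers, so depth limits low values by an unknown amount.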
